A study of Mus musculus with 12 samples.

Results

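The output branch of the circadian clock is described here for 9 genes: the PAR bZIP factors Dbp, Tef and Hlf, the DEC repressors Bhlhe40 and Bhlhe41, and Usp2, Tsc22d3, Nampt and Por. Each gene was taken by its platform symbol, or an older symbol of the same gene, and its brightest probe set by mean was to stand for it. Of the 9 genes, 8 had a probe set, 1 each, among 19938 named genes, and all 8 were bright enough to be tested among 13956 genes. Por, the reductase that passes electrons to cytochromes P450, had no probe set named here and was not analysed.

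The study measured total RNA of mouse embryonic fibroblasts, cultured connective tissue cells, on 12 arrays. By their labels the cells were wild type or MLL1 KO, a knockout of the histone methyltransferase MLL1, whose gene is Kmt2a. Both genotypes grew with 5% FBS and 5% NCS, received 50% horse serum for 2 h, a serum shock that aligns the clocks of cultured cells, and were collected 18 h or 30 h after it. The 4 groups are thus wild type at 18 h, wild type at 30 h, knockout at 18 h and knockout at 30 h, with 3 arrays each. The labels state neither how the knockout was made nor how many embryos or lines gave the cells, and no label makes replicates separate cultures. The p-values therefore cover only how far these arrays differ, which may be technical. With 2 times only, a change between them says nothing of phase or amplitude, and fewer cells of a type cannot be told apart from less RNA per cell.

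The clock of mammalian cells turns on CLOCK and BMAL1, a pair of activators that bind the E-box and drive their own repressors, the PER and CRY proteins. The same E-box drives output genes. DBP, TEF and HLF are basic leucine zipper activators that bind a second element, the D-box, which the repressor NFIL3 also binds. DEC1 (Bhlhe40) and DEC2 (Bhlhe41) are basic helix-loop-helix repressors that bind the E-box themselves and so feed back on the clock. USP2 removes ubiquitin from other proteins, TSC22D3 (GILZ) is a leucine zipper protein induced by glucocorticoids, and NAMPT makes the precursor that limits the salvage of NAD.

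Promoter windows are shown because the group is defined by E-box control. RefSeq windows of build GRCm38.p6 were found for 8 of the 9 genes, all but Bhlhe40. The letters CACGTG, the E-box, were searched on both strands of the 250 bases before each start. They occurred for 2 of the 8 genes, Tef and Bhlhe41, against 6.86% of all 27025 genes with a window and 6.02% of all 32851 windows of this length. The windows below are written 5′ to 3′ on the gene's strand, with the E-box in capitals. Tef has 2 annotated starts, and each window holds an E-box, at -127 and -138 from the start; the windows are chr15:81802423-81802672 and chr15:81811164-81811413, plus strand. The Bhlhe41 window is chr6:145865421-145865670, minus strand, with its E-box at -153.
Tef, first start: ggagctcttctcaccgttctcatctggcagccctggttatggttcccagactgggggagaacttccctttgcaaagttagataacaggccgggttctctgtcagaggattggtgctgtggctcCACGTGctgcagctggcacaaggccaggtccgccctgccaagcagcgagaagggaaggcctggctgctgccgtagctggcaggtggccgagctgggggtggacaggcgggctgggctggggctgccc
Tef, second start: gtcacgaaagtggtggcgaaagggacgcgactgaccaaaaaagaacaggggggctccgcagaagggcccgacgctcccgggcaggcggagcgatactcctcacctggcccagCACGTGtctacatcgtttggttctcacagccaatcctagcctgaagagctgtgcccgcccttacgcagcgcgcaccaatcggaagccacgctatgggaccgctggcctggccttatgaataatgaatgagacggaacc
Bhlhe41: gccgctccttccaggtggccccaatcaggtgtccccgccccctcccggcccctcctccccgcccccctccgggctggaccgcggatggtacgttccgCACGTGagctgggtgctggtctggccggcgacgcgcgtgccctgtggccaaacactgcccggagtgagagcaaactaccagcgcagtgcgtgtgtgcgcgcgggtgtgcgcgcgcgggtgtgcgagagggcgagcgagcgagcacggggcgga
The related letters CACGTT, and the D-box letters TTACGTAA and TTATGTAA, matched in none of the 8 genes' windows, against 3.85% and 0.931% of all windows. The letters AAGGTCA or AGGGTCA, bound by ROR and REV-ERB proteins, occurred once, as AGGGTCA at -128 in the Usp2 window, and in 7.51% of all windows. The only windows of Usp2 and Dbp lie at starts within the gene. The bases before the outermost start were thus not searched for Usp2, and only in part for Dbp. The paired glucocorticoid element occurred in no window of the 8 genes and in 0.387% of all windows. A match is a description of letters, and no match says only that these letters are not in the window.

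The median intensity of the arrays lay between 273.3 and 311.8, and within groups the array pairs had r from 0.984 to 0.996 over tested genes. Knockout 18 h replicate 1 stood apart. On the second principal component, with 7.11% of the variance, it lay at -9.34, against -25.2 and -24.9 for the other knockout 18 h arrays and 20.0 to 24.6 at 30 h. Kmt2a ranged from 2069 to 2824 in wild type and from 1338 to 2174 in the arrays labelled knockout, with log2 differences of -0.19 (adjusted p = 0.108) at 18 h and -0.57 (adjusted p = 0.000111) at 30 h. Where its probes lie relative to the disrupted part is not given, so these values do not check the labels. Of 12 fibroblast markers 10 were above the brightness limit in each group, among them Col1a1, Vim and Fn1, and Lum and Fap were below it.

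In wild-type cells Dbp and Tef fell between 18 h and 30 h, Dbp by 2.00-fold, and in knockout cells the fall of Dbp was smaller and no change of Tef passed the test. Dbp is the PAR bZIP gene best known for a strong rhythm. Wild-type arrays read 1034, 970.3 and 1141 at 18 h, then 517, 539 and 489.7 at 30 h. Knockout arrays read 718, 794 and 833 at 18 h, then 724, 612 and 590.4 at 30 h. The wild-type groups lay far apart, with the knockout arrays between them, and the ranges of the knockout groups overlapped. The order of the means was wild type 18 h, knockout 18 h, knockout 30 h and wild type 30 h, and the knockout groups were the neighbours that overlapped.

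Differences are given on the scale of log2(intensity + 16), with the limma test over all 12 arrays and adjusted p-values over the 13956 genes, called under 0.05. Dbp fell with time in wild type by 1.00 (SE 0.0965, adjusted p = 4.63e-05) and in knockout by 0.28 (adjusted p = 0.0294). The knockout call ended without knockout 18 h replicate 2 (-0.27, adjusted p = 0.0856) or 3 (-0.23, 0.114), without knockout 30 h replicate 2 (-0.25, 0.105) or 3 (-0.22, 0.11), and when only the knockout arrays were fitted (adjusted p = 0.0576). The difference between the 2 time effects was 0.72 (SE 0.136, adjusted p = 0.00186), with a 95% interval from 0.43 to 1.01. Knockout Dbp was thus lower than wild type at 18 h, by a log2 difference of -0.42 (adjusted p = 0.00128), and higher at 30 h, by 0.30 (adjusted p = 0.0136). The call at 30 h ended without wild-type 30 h replicate 3 (0.27, adjusted p = 0.0572), without knockout 30 h replicate 1 (0.22, adjusted p = 0.082), and after array medians were set equal (0.28, adjusted p = 0.0514).

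Tef, a relative of Dbp with a milder rhythm in most tissues, had an E-box in both windows shown above. The wild-type arrays gave 2016, 2129.5 and 2021 at 18 h, then 1192, 1280.3 and 1187 at 30 h. The knockout arrays gave 829, 787 and 784 at 18 h, then 881, 790.3 and 773 at 30 h. Every knockout array lay below every wild-type array, and the 2 knockout groups overlapped. Tef fell with time in wild type by 0.75 (SE 0.0757, adjusted p = 6.74e-05). In knockout the difference was 0.02 (adjusted p = 0.857), with a 95% interval from -0.14 to 0.18. The time effects differed by 0.77 (adjusted p = 0.000263). Knockout Tef was lower by log2 differences of -1.34 at 18 h (adjusted p = 1.19e-10), or 2.54-fold, and -0.57 at 30 h (adjusted p = 6.2e-06).

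Hlf, the remaining PAR bZIP gene, passed no test. Intensities in wild type were 341, 306 and 355 at 18 h, then 385, 303 and 320.4 at 30 h. Those in knockout were 391, 396 and 389 at 18 h, then 355, 323 and 383 at 30 h. The knockout 18 h arrays lay above all others and close together, and the other 3 groups overlapped. All values were near those of Sox10, a glial marker, at 328 to 426. Whether Hlf stood above background signal was not tested. The knockout difference at 18 h was 0.22, with a 95% interval from 0.01 to 0.44 and adjusted p = 0.0702. It passed under 3 other scalings (0.28 to 0.30, adjusted p = 0.0207 to 0.03), with array weights (0.24, 0.019) and without wild-type 30 h replicate 1 (0.22, 0.0464). At 30 h the difference was 0.07 (adjusted p = 0.577). The time difference was 0.00 in wild type (interval -0.21 to 0.22) and -0.14 in knockout (interval -0.36 to 0.07, adjusted p = 0.296), and the latter passed with array weights (-0.24, adjusted p = 0.00491).

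**Figure D1:**
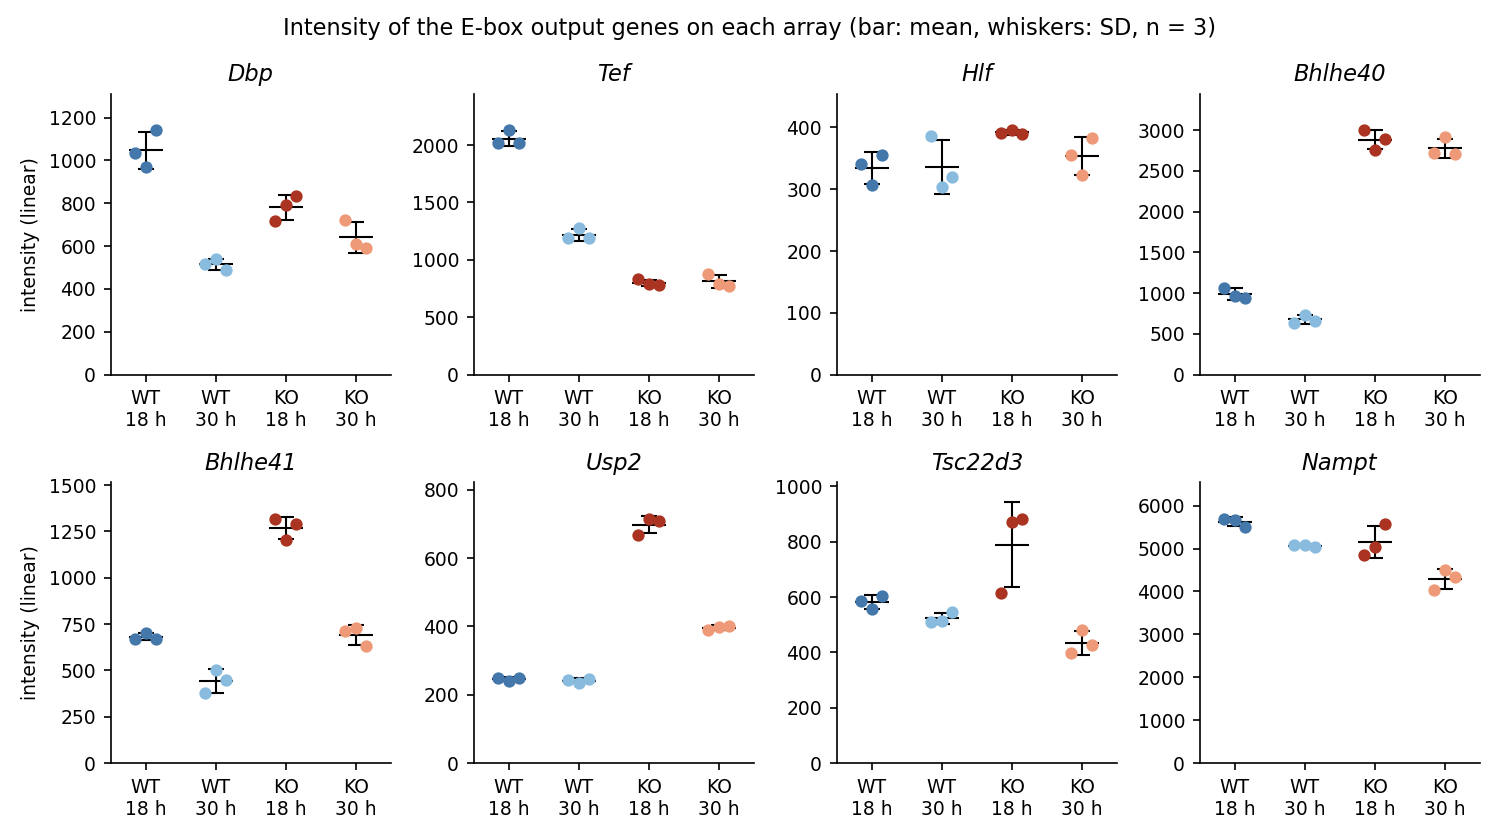
Intensity (linear axis from 0) of the 8 measured genes on each of the 12 arrays, by genotype and time. Points are arrays, the horizontal bar is the group mean and whiskers are the SD (n = 3). Tef lies between 773 and 881 on all knockout arrays and Bhlhe40 between 2709 and 2999.7, each apart from wild type, while Usp2 is between 233 and 250.3 on all wild-type arrays.

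Both DEC genes were higher in knockout than in wild type at each time. In wild type both fell with time. Bhlhe40 encodes DEC1, which also responds to serum and low oxygen. Wild-type arrays read 1068, 962 and 935 at 18 h, then 636, 736 and 661 at 30 h. Knockout arrays read 2999.7, 2762 and 2894 at 18 h, then 2717, 2913 and 2709 at 30 h. The genotypes lay far apart, the wild-type times did not overlap and the knockout times did. Bhlhe40 was higher in knockout by 1.53 at 18 h (SE 0.0787, adjusted p = 3.47e-11), or 2.89-fold, and by 2.01 at 30 h (adjusted p = 1.02e-12), or 4.03-fold. It fell with time in wild type by 0.53 (adjusted p = 0.00174). In knockout the time difference was -0.05 (adjusted p = 0.656), with a 95% interval from -0.22 to 0.11. The time effects differed by 0.48 (adjusted p = 0.00679).

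Bhlhe41 encodes DEC2, whose window holds the E-box shown above. The wild-type arrays gave 669, 703 and 672 at 18 h, then 379, 504 and 447 at 30 h. The knockout arrays gave 1319, 1204 and 1288 at 18 h, then 715, 728 and 632 at 30 h. The knockout 30 h arrays overlapped the wild-type 18 h arrays, and the other neighbouring groups did not overlap. Bhlhe41 fell with time in both genotypes, by 0.61 in wild type (SE 0.0985, adjusted p = 0.00314) and by 0.86 in knockout (adjusted p = 7.31e-06). The time effects differed by -0.25, which did not pass (interval -0.55 to 0.04, adjusted p = 0.226). Knockout Bhlhe41 was higher by 0.88 at 18 h (adjusted p = 6.96e-07), or 1.84-fold, and by 0.63 at 30 h (adjusted p = 4.05e-05). Whether the time effects of the 2 DEC genes differ from each other was not tested.

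Usp2, Tsc22d3 and Nampt fell with time in knockout, and none of them passed the test for time in wild type. Usp2, a deubiquitinase gene with a rhythm in many tissues, stood at 250.3, 240.5 and 248 on the 18 h arrays of wild type, then at 244, 233 and 246 at 30 h. Those in knockout were 669, 715 and 708 at 18 h, then 389, 399 and 402 at 30 h. All wild-type arrays lay within a narrow band below all knockout arrays, and the 2 knockout groups did not overlap. The wild-type values were below the array medians, 273.3 to 311.8. They lay near those of Krt5, an epithelial marker, at 240 to 268 in wild type. Whether a fall from so dim a level could be seen was not tested. Usp2 was higher in knockout by 1.44 at 18 h (SE 0.0782, adjusted p = 7.12e-11), or 2.72-fold, and by 0.68 at 30 h (adjusted p = 1.28e-06). It fell with time in knockout by 0.79 (adjusted p = 2.18e-06). In wild type the difference was -0.03 (adjusted p = 0.89), with an interval from -0.20 to 0.14, and it had the opposite sign under 3 other scalings (0.02 to 0.04). The time effects differed by -0.76 (adjusted p = 0.000353).

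Tsc22d3, the glucocorticoid-induced gene, stood at 585, 556 and 605 on the 18 h arrays of wild type, then at 511, 512 and 545 at 30 h. Knockout arrays read 614, 871 and 883 at 18 h, then 397, 479.8 and 426 at 30 h. The low knockout 18 h array is replicate 1, the array that stood apart, and it was still above every array of the other groups. Tsc22d3 was higher in knockout at 18 h by 0.41 (SE 0.119, adjusted p = 0.00667), and by 0.58 (adjusted p = 3.8e-05) without that replicate. At 30 h the groups did not overlap, with knockout below wild type by -0.26, which did not pass (adjusted p = 0.0765) and passed without knockout 18 h replicate 1 (adjusted p = 0.0116) and with only the 30 h arrays fitted (adjusted p = 0.0263). Tsc22d3 fell with time in knockout by 0.82 (adjusted p = 5.61e-05), and by 0.99 without replicate 1. In wild type the difference was -0.15 (interval -0.40 to 0.10, adjusted p = 0.564). The time effects differed by -0.67 (adjusted p = 0.0103).

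Nampt, the gene of NAD salvage, was bright and moved least among the called genes. Intensities in wild type were 5696, 5674 and 5498 at 18 h, then 5072, 5093 and 5042 at 30 h. The knockout arrays gave 4845, 5044 and 5575 at 18 h, then 4026, 4492 and 4346 at 30 h. Among the knockout 18 h arrays, the value of 4845 lay below all wild-type arrays. The other values, 5044 and 5575, lay within the wild-type 30 h and 18 h ranges. The knockout 30 h arrays lay below all others. Nampt fell with time in knockout by 0.26 (SE 0.0610, adjusted p = 0.00255) and was lower in knockout at 30 h by a log2 difference of -0.24 (adjusted p = 0.00295). At 18 h the genotype difference was -0.13 (interval -0.26 to 0.00, adjusted p = 0.084). It passed under quantile scaling (-0.14, adjusted p = 0.0456), with array weights (-0.15, 0.0115) and without knockout 18 h replicate 3 (-0.18, 0.0197). In wild type the time difference was -0.15 (interval -0.28 to -0.02, adjusted p = 0.195), though the arrays of the 2 times did not overlap. The time effects differed by -0.11, which did not pass (interval -0.30 to 0.07, adjusted p = 0.402).

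Counted together, 4 of the 8 genes fell with time in wild type, where 1.55% of all tested genes fell, 2.41% rose and 3.96% were called in either direction. These 4 were Dbp, Tef, Bhlhe40 and Bhlhe41. The median log2 difference of the 8 was -0.34, against -0.01 over all tested genes, and the arrays of the 2 times did not overlap for 6 of the 8, against 25.6% of all genes. In knockout 5 of the 8 fell, where 18.4% of all genes fell, 20.9% rose and 39.3% were called, and these were Dbp, Bhlhe41, Usp2, Tsc22d3 and Nampt. The median was -0.27, against 0.02 over all genes, and arrays did not overlap for 5 of the 8, against 46.2%. The difference of the time effects was called for 5 of the 8, against 20.3% of all genes, 10.2% above 0 and 10.1% below. It was above 0 for Dbp, Tef and Bhlhe40, whose falls in wild type were larger, and below 0 for Usp2 and Tsc22d3, whose falls in knockout were larger. The genes were chosen with earlier results of these data known, so these counts describe the list.

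Without knockout 18 h replicate 1 the same 5 genes fell in knockout, and the same 5 had a called difference of time effects. Beside the falls in wild type, the summed intensity of 7 pericyte and smooth muscle markers ran from 3898 to 4164 at 18 h and from 7172 to 8781 at 30 h, and in knockout from 6047 to 7593 and from 7268 to 8072. In wild type 1 of the 7, Acta2, an actin gene that fibroblasts also express, was above its 18 h range at 30 h, at 1001 to 1404 and then 4731 to 6082. Rgs5, Mcam and Des were below theirs, and the other 3 overlapped, among them Myh11, the smooth muscle myosin gene, at 195 to 228. Beside the falls in knockout, the summed intensity of the 8 measured macrophage and blood markers, of 10 listed, ran from 2652 to 4291 at 18 h and from 2133 to 2262 at 30 h, with Cd68 below its 18 h range, at 1315 to 2964 and then at 685 to 897. Cd14 was above its own, at 179 to 192 and then at 225 to 327, and the other 6 overlapped between the times. The defining leukocyte marker Ptprc stayed at 130.5 to 172.6 in knockout, below the brightness limit of 174.8, and Lyz2 at 27.4 to 85.3. Cd68 was below its 18 h range in wild type too, at 1122 to 1214 and then 806 to 1054. Acta2 was above its own in knockout too. Sums of the 6 adipocyte markers ran from 19976 to 20158 and then 18499 to 19215 in wild type. In knockout they ran from 1559 to 1696 and then 1117 to 1248. Of the neural and glial markers in knockout, Map2 was below its 18 h range, and Nes and Sox2 were above theirs. Of all tested genes, 25.6% in wild type and 46.2% in knockout had no overlap between the times. The part of the marker lists in the falls was not tested.

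**Figure D2:**
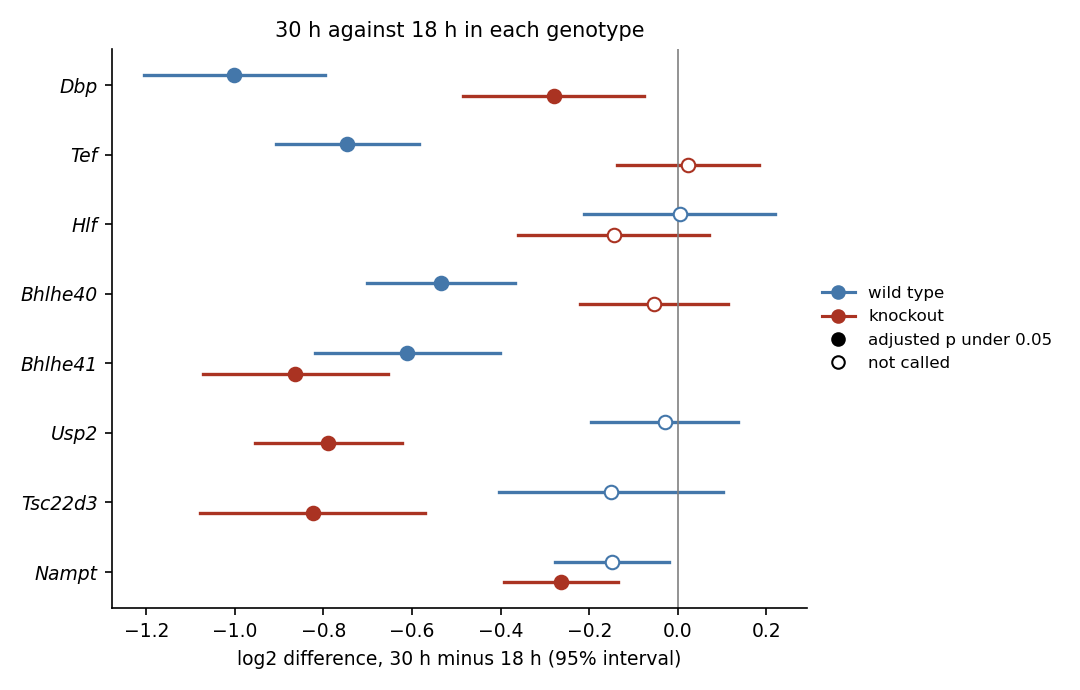
Log2 difference of 30 h minus 18 h for each gene in wild type and in knockout, with 95% intervals from the limma fit; filled points had adjusted p under 0.05. Dbp, Tef and Bhlhe40 lie farther below 0 in wild type, Usp2 and Tsc22d3 farther below 0 in knockout, and Bhlhe41 lies below 0 in both.

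Between the genotypes, 6 of the 8 genes were called at 18 h, 4 higher and 2 lower in knockout, where 60.1% of all tested genes were called, 26.3% higher and 33.8% lower. At 30 h 6 were called, 4 higher and 2 lower, where 52.9% of all genes were called, 24.3% higher and 28.6% lower. Differences between the genotypes were so common across the array that these counts lie near the background, and arrays did not overlap for 7 of the 8 genes at each time, against 63.1% at 18 h and 61.5% at 30 h. Bhlhe40, Bhlhe41 and Usp2 were higher at both times and Tef was lower at both. Dbp was lower at 18 h and higher at 30 h. Tsc22d3 was called at 18 h and Nampt at 30 h. The time and genotype comparisons share arrays, so they are not independent of each other.

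Some marker genes of fibroblasts and of other cell types also stood apart between the genotypes. So did most genes, with no overlap for 63.1% of all tested genes at 18 h and 61.5% at 30 h. The marker counts below are over both times together, for which the share of all genes was not counted. Of the 12 fibroblast markers, 5 were below the wild-type range on all knockout arrays, among them Pdgfra at 3203 to 4040.1 in wild type and 354 to 445 in knockout, and 2 were above it, Col1a1 and Dcn, the latter at 236 to 524 and 5415 to 6045. The other 5 overlapped, and the summed list ran from 58802 to 62493 in wild type and from 56851 to 59926 in knockout. All 6 adipocyte markers were lower without overlap, with sums of 18499 to 20158 in wild type and 1117 to 1696 in knockout. Of 10 neural and glial markers, 3 were above the wild-type range, Nes, Map2 and Tubb3, and the other 7, Gfap and Sox10 among them, overlapped. Their sums ran from 1978 to 2458 in wild type and from 7186 to 8076 in knockout, with Nes at 29.1 to 56.3 and 2336 to 3664. Of the 7 pericyte and smooth muscle markers, Mcam was above, at 255 to 335 and 526 to 1045, Cspg4 was below, at 671 to 780 and 73.1 to 124, and so was Rgs5. Of the 6 endothelial markers 1 stood apart, Kdr, at 76.8 to 103 in wild type, 224 to 344 in knockout at 18 h and 114 to 149 at 30 h. The endothelial sums were 708 to 818, 848 to 1012 and 766 to 860. The 6 epithelial markers overlapped, with sums of 1165 to 1490 in wild type and 1403 to 1545 in knockout. The part of these markers in the genotype differences of the 8 genes was not tested.

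**Figure D3:**
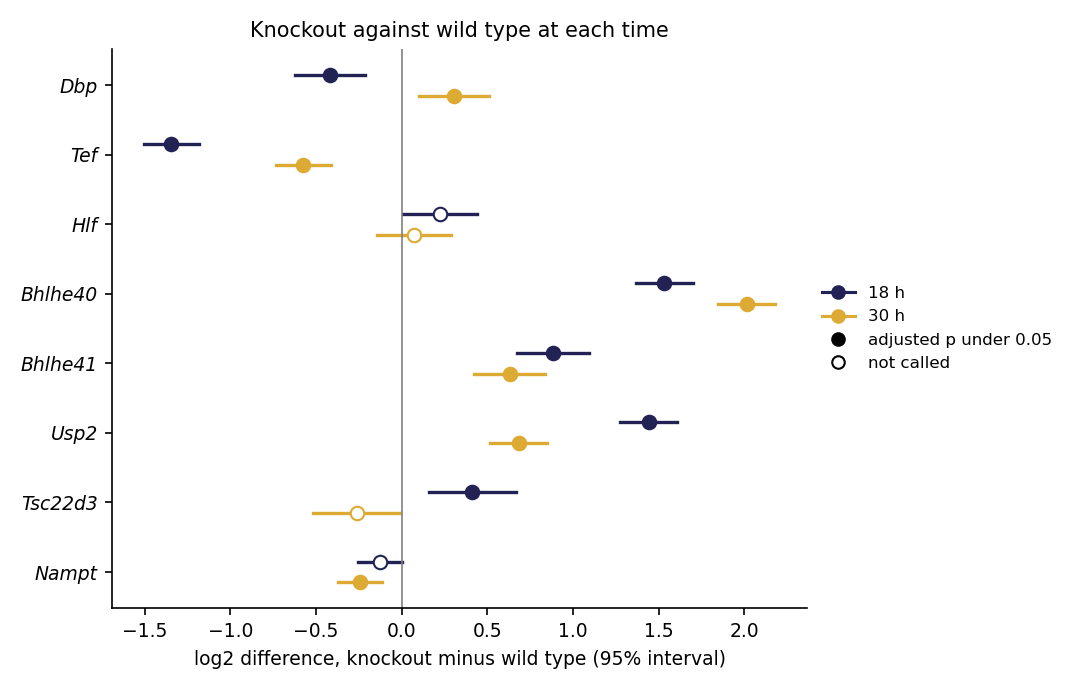
Log2 difference of knockout minus wild type for each gene at 18 h and at 30 h, with 95% intervals from the limma fit; filled points had adjusted p under 0.05. Bhlhe40 is highest, at 1.53 and 2.01, Tef is lowest, at -1.34 and -0.57, and Dbp lies below 0 at 18 h and above 0 at 30 h.

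In the wider clock most genes did not pass the test for time in wild type, and those that did mostly fell. Of 17 tested core clock genes outside the group, 5 fell, 1 rose and 11 were not called in wild type, with a list median of -0.21. In wild type 1.55% of all tested genes fell and 2.41% rose. Per3 and Per2, repressors of CLOCK and BMAL1, fell by 1.07 (adjusted p = 0.000153) and 0.92 (adjusted p = 3.11e-05), and Arntl, which encodes BMAL1, rose by 0.73 (adjusted p = 0.00103). Rora fell by 0.45 (adjusted p = 0.0207), and no change of Nr1d1 passed (0.02, adjusted p = 0.97). In knockout 9 fell and 3 rose, with a median of -0.27, where 18.4% of all tested genes fell and 20.9% rose. There the nuclear receptor genes Rora and Nr1d1 fell by 0.93 (adjusted p = 5.4e-06) and 0.74 (adjusted p = 0.00143), and Ciart, a clock repressor, rose by 0.51 (adjusted p = 0.00771). The difference of time effects was 0.91 for Per3 and 0.89 for Per2, on the side of Dbp and Tef. For Arntl, which fell in knockout by 0.56 (adjusted p = 0.000365), it was -1.29 (adjusted p = 4.7e-05).

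Between the genotypes 9 of the 17 clock genes were higher and 5 lower in knockout at 18 h, where 60.1% of all tested genes were called. At 30 h 6 were higher and 4 lower, where 52.9% were called. Nfil3, the repressor that competes with PAR bZIP proteins for the D-box, was the highest at 18 h. At 18 h its mean was 689 ± 27.7 for wild type against 1858 ± 248 for knockout (SD, n = 3), a log2 difference of 1.40 (adjusted p = 1.03e-09), and was higher by 0.66 at 30 h (adjusted p = 1.45e-05). Arntl was higher by 1.11 at 18 h (adjusted p = 5.94e-08), and Per3 was lower by -1.37 (adjusted p = 3.43e-08). At 30 h Ciart was higher by 0.91, Fbxl21, which encodes an F-box protein that acts on CRY proteins, was higher by 0.89, and Timeless was lower by -0.85. Rorb, a relative of Rora, was lower at both times, by -0.92 and -0.81.

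Among 11 tested genes reported as D-box targets of PAR bZIP proteins, several of which are clock genes of the list above, 4 fell with time in each genotype. The share of all tested genes that fell was 1.55% in wild type but 18.4% in knockout. In knockout 4 were higher and 3 lower at 18 h, where 60.1% of all tested genes were called. At 30 h 2 were higher and 2 lower, where 52.9% were called. The medians were 0.08 and 0.11. The lowest at both times was Per3. These medians lay close to those over all tested genes, -0.03 and 0.02.

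The HES and HEY genes encode repressors of the same wider family as the DEC proteins. Of 8 tested, 3 were higher and 0 lower in knockout at each time. Over all tested genes 26.3% were higher and 33.8% lower at 18 h, and 24.3% and 28.6% at 30 h. Hes1, a target of Notch signalling, was higher by 2.21 at 18 h (adjusted p = 5.13e-10) and by 1.89 at 30 h (adjusted p = 4.75e-09). Hey1 was higher by 1.23 at 18 h (adjusted p = 7.55e-08) and by 0.35 at 30 h (adjusted p = 0.0168), and the latter call ended without wild-type 30 h replicate 3 (0.30, adjusted p = 0.0692) or knockout 30 h replicate 2 (0.30, adjusted p = 0.0721). With time 2 of the 8 fell in knockout, against 18.4% of all tested genes, with Hey1 at -0.90 (adjusted p = 1.78e-05).

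Hypoxia-inducible genes, a class to which DEC1 and DEC2 are often counted, were mostly higher in knockout. Of 14 tested, 11 were higher and 2 lower at 18 h, and 12 higher and 1 lower at 30 h, with medians of 0.67 at each time. Over all tested genes 26.3% were higher at 18 h and 24.3% at 30 h. Egln3, an oxygen-sensing hydroxylase gene, was higher by 1.81 at 18 h (adjusted p = 1.99e-10) and 2.86 at 30 h (adjusted p = 5.05e-13). P4ha2, a collagen hydroxylase gene, was higher by 1.12 at 18 h, and Bnip3, a mitophagy gene, by 1.22 at 30 h. Adm, which encodes the peptide adrenomedullin, was lower at both times, by -2.50 and -1.86. With time 5 of the 14 fell in wild type, against 1.55% of all tested genes, and Egln3 was among the 5, at -0.66 (adjusted p = 0.003). In knockout 6 fell and 2 rose, against 18.4% and 20.9%, with Ndrg1 at -0.79 and Ero1a at -0.55 the lowest.

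Of 17 tested glucocorticoid-responsive genes other than Tsc22d3, 9 were higher and 4 lower in knockout at 18 h, where 60.1% of all tested genes were called. At 30 h 8 were higher and 6 lower, where 52.9% were called. The medians were 0.21 and 0.11. The metallothionein gene Mt2 was higher by 2.18 and 2.79, the phosphatase gene Dusp1 by 1.37 at 18 h, and the kinase gene Sgk1 by 1.47 at 30 h. Angptl4, which encodes an inhibitor of lipoprotein lipase, was lower by -1.70 and -1.08, and the iron-carrier gene Lcn2 by -0.86 and -1.35. With time 2 fell and 1 rose in wild type, and 8 fell and 3 rose in knockout, with medians of -0.04 and -0.24. Called with time were 3.96% of all tested genes in wild type and 39.3% in knockout, where 18.4% fell and 20.9% rose. Pdk4, a metabolic kinase gene, fell in knockout by 0.51 (adjusted p = 0.000301).

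Of 17 tested genes of NAD synthesis and use other than Nampt, 6 were higher and 8 lower in knockout at 18 h. At 30 h 4 were higher and 5 lower, where 52.9% of all tested genes were called, against 60.1% at 18 h. Nnmt, which consumes nicotinamide by methylation, was the lowest, with an 18 h mean of 1915 ± 131 for wild type against 106 ± 10.8 for knockout (SD, n = 3), a log2 difference of -3.98 (adjusted p = 1.41e-13). Nmnat1, which encodes the nuclear enzyme of the last step to NAD, was lower by -1.11 and -0.69 and rose with time in knockout by 0.70 (adjusted p = 0.000108). Nmnat3, its mitochondrial counterpart, was higher by 0.92 and 0.84. Bst1, which encodes an enzyme that breaks down NAD, fell with time in knockout by 0.84 (adjusted p = 2.47e-05).

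Por itself was not measured, and 15 genes of its P450, haem and sterol partners stand for its pathway. In knockout 9 were lower and 3 higher at 18 h, where 33.8% of all tested genes were lower. At 30 h 11 were lower and 1 higher, where 28.6% were lower. The list medians were -0.40 and -0.46. The lowest were Cyp2f2, at -7.42 and -6.71, and Cyp1b1, at -2.92 and -2.53. Cyp51, a P450 of sterol synthesis, was higher at 18 h by 0.68 (adjusted p = 0.000227). With time 1 of the 15 fell in wild type, Cyp2f2 at -0.66, where 1.55% of all tested genes fell. In knockout 3 fell and 1 rose, against 18.4% and 20.9% of all tested genes, with Cyp51 at -0.72 (adjusted p = 0.000357).

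**Figure D4:**
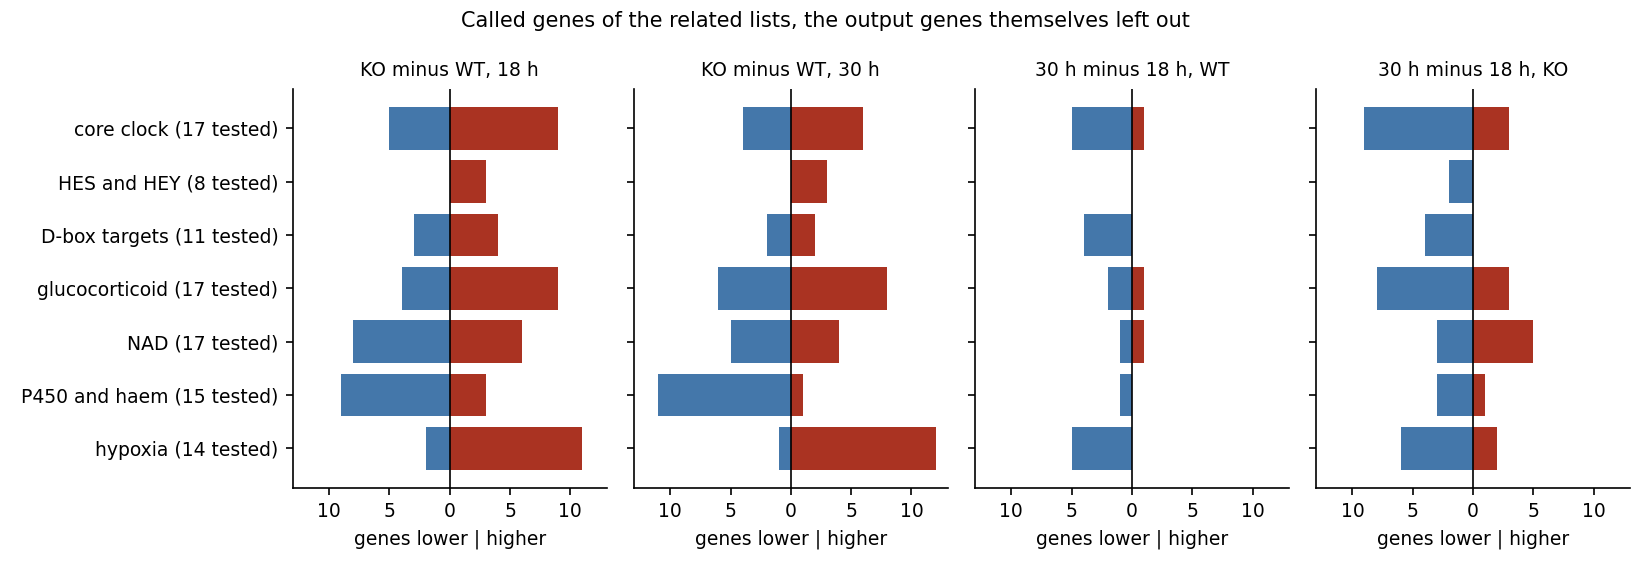
Number of genes called higher (right of 0) and lower (left of 0) in 7 related lists for the 4 comparisons, with the 9 genes of the output group left out of each list. Hypoxia-inducible genes are mostly higher in knockout (11 and 12 of 14) and the P450 and haem list mostly lower (9 and 11 of 15), while with time in wild type 6 of 17 core clock genes, 4 of 11 D-box targets and 5 of 14 hypoxia genes were called. Of all tested genes, 26.3% and 24.3% were higher in knockout, 33.8% and 28.6% lower, and 3.96% were called with time in wild type.

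Profiles across the 12 arrays were compared with all other tested genes by Pearson's r, as a description, since the arrays fall into 4 groups of 3 and the genes were picked for their r. The gene most like Dbp was St6galnac6, a sialyltransferase gene, at r = 0.970, followed by Per2 at 0.933. The closest to Tef was Pik3ip1, an inhibitor of PI3 kinase, at 0.977. Once the mean of each genotype was subtracted, the closest to Tef were Per2 at 0.976, Ggt5 at 0.969 and Per3 at 0.955. For Bhlhe40 the highest values were 0.996 for Mt2 and 0.995 for Dbn1 and Ndrg2, and after subtraction of the genotype means 0.938 for Sorbs2. For Bhlhe41 they were 0.984 for Sort1 and, after subtraction, 0.982 for Hpse and 0.981 for Snai1. For Hlf they were 0.940 for Zdhhc22 and, after subtraction, 0.940 for Sec14l5.

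Within the group, and again with genotype means subtracted, Dbp and Tef had r = 0.922, Tef and Bhlhe40 0.929, and Usp2 and Tsc22d3 0.931 over the 12 arrays. Hlf had r = 0.141 with Dbp and -0.100 with Tef. Bhlhe41 had r = 0.855 with Nampt, 0.789 with Usp2, 0.785 with Tsc22d3, 0.735 with Dbp, 0.653 with Bhlhe40, 0.553 with Tef and 0.166 with Hlf, and these values are a description with no test.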

How the data were processed

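Per the submitters' processing notes, the authors made the deposited values, a linear intensity for each probe set, with Affymetrix Expression Console 1.1 and PLIER 2.0; the normalization between arrays is unstated in the labels and headers. Groups came from the sample labels. Of 35557 probe sets, 21789 have 1 symbol in the platform annotation, 1621 several and 12147 none listed, and 21698 were matched by Entrez number to RefSeq (GRCm38.p6). The brightest probe set by mean stood for a gene, and genes at or above the 30th percentile of mean log2(intensity + 16), 7.58 or an intensity of 174.8, were tested, 13956 of 19938. An added 16 understates changes of dim genes. The 4 group means were fitted to 12 arrays with limma 3.58.1 in R 4.3.3 (eBayes with intensity trend, 8 residual and 7.98 prior degrees of freedom), two-sided, with Benjamini-Hochberg adjustment, and the fit was tested on simulated data. The number of arrays limits the precision.

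Named genes were the 9 genes, Kmt2a, at most the 2 highest and 2 lowest called genes of each of 7 lists per comparison, and the 3 genes of highest r for each PAR bZIP and DEC gene. Genes and lists were chosen with earlier results of these data known.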

Additional observations from a re-analysis of the deposited data

Results flagged for a closer look

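The difference of time effects, knockout minus wild type, passed the test for 5 of the 8 genes, which is why they are listed here. On the log2 scale it was 0.72 for Dbp, 0.77 for Tef and 0.48 for Bhlhe40, and -0.76 for Usp2 and -0.67 for Tsc22d3. Usp2 was dim in wild type, at 233 to 250.3, which limits its comparison.

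The same test passed for 18 other genes named from the related lists. Genes named only as cell type markers or only for their r, Acta2 among them, are left out of this listing. Above 0 were Egln3 at 1.05, Per3 at 0.91, Per2 at 0.89, Ciart at 0.78, Cyp2f2 at 0.72, Mt2 at 0.61 and Bnip3 at 0.60. Knockout Cyp2f2 stood at 26.5 to 43.1, below the brightness limit of 174.8, where a fall could hardly be seen. Its value thus mainly repeats its fall in wild type, -0.66. Below 0 were Arntl at -1.29, Cyp51 at -1.05, Pdk4 at -0.91, Hey1 at -0.88, Nr1d1 at -0.76, Nfil3 at -0.75, Bst1 at -0.71, Ndrg1 at -0.61, Lcn2 at -0.49, Rora at -0.47 and Ero1a at -0.45. Single arrays decided 2 of these calls. For Nr1d1 (adjusted p = 0.0254) the call ended when any of 5 arrays was dropped (wild-type 18 h number 1 and 30 h number 2, knockout 18 h numbers 2 and 3 and 30 h number 2), with values of -0.75 to -0.60. For Rora (adjusted p = 0.0296) it likewise ended for any of 5 arrays (wild-type 18 h number 3 and 30 h numbers 2 and 3, knockout 18 h number 2 and 30 h number 1), with values of -0.47 to -0.35.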

How the results depend on the processing

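Tried in turn were an added 1 or 64 in the logarithm, all genes or the upper 50% by brightness (which drops Hlf and Usp2), 3 scalings between arrays (quantile, equal medians, cyclic loess), eBayes without the trend or made robust, array weights (whose iteration stopped before full convergence), a fit of the compared arrays alone, averaged probe sets, a further condition of 1.5-fold, the replicate block and each array left out. Counts of called genes among the 8 stayed within 1.5 times, except with the 1.5-fold condition, which by its construction left 3 at 30 h between genotypes and 3 for time in knockout. With 1 array left out the counts were 6 to 7 and 5 to 7 between genotypes at 18 h and 30 h, 4 for time in wild type, 4 to 5 in knockout and 5 for the difference. Signs turned only for values that were not called: time in wild type for Usp2 (0.04 under quantile scaling and equal medians, 0.02 under loess) and Hlf (-0.05 with array weights, and -0.09 to 0.07 with 1 array left out), and time in knockout for Tef (-0.03 under loess, and -0.03 to 0.06 with 1 array left out) and Bhlhe40 (0.04 with array weights). The cause was not tested.

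Over all genes, 553 were called with time in wild type, but 72 with the 1.5-fold condition, 997 with only those arrays, 1742 with array weights and 157 to 1032 with 1 array left out. That condition left 4096, 3111, 1433 and 1243 of 8384, 7382, 5484 and 2838 in the other comparisons, and array weights gave 8722 for time in knockout and 5844 for the difference. The share of calls above 0 was 60.9% for time in wild type and 81.0% with equal medians, and 50.3% and 30.1% for the difference, which was 37.4% under loess. Replicate numbers did not pair arrays: same-numbered arrays deviated together at r from -0.456 to 0.454, and 3 of 12 correlated best with their own number. With the replicate block the counts among the 8 were 6, 6, 4, 5 and 5, as without it, and 485 genes were called with time in wild type.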
